A study of Homo sapiens with 2 samples.

Results

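Box H/ACA RNAs and the small RNAs of Cajal bodies were examined in the human cell line HL-60, which derives from a promyelocytic leukaemia. They were chosen by name, as genes whose symbol in the array annotation starts with SNORA or SCARNA and a number, on probe sets that carry no other symbol. This gave 77 genes on 81 probe sets, 61 of them SNORA and 16 SCARNA, of 18404 genes with a name of their own. RefSeq lists 211 such genes, and a further 20 symbols stand only on probe sets that they share with another gene. Total RNA of the wild-type line was measured on 2 arrays of the type Affymetrix Human Gene 1.0 ST, which form 1 group and are called replicate 1 and replicate 2. No genotype, treatment or time is compared, and the series as a whole concerns DNMT1-bound RNA, DNA methylation and expression. The cells were grown in DMEM with 10% serum at 37 °C and 5% CO2, and separate cultures are not stated for the replicates, so the spread between them may be technical. All values are log2 signals made with RMA, which corrects background, equalizes the arrays' distributions and summarises probes, given per array or as mean ± SD (n = 2). So few arrays limit the precision, and no p-value was computed.

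H/ACA RNAs fold into hairpins followed by short conserved boxes and guide the enzyme dyskerin to uridines, which it turns into pseudouridine. Those of the nucleolus (SNORA) act on ribosomal RNA, and a few take part in its cleavage. Those of Cajal bodies (SCARNA, or scaRNA) act on the spliceosomal snRNAs, and this name also covers box C/D RNAs, which guide methylation of the ribose, and RNAs that join both box types. In vertebrates nearly all H/ACA RNAs lie in introns of host genes and are trimmed out of the spliced intron, and many hosts encode ribosomal proteins or translation factors. The name of the group therefore holds in part. Of the 16 SCARNA genes, 8 are box H/ACA, 4 are mixed and 3 (SCARNA7, SCARNA9 and SCARNA17) are box C/D by textbook classification, and for SCARNA9L no class was assigned.

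The tables used here hold no whole sequence of these RNAs, but the RefSeq hairpin of the microRNA gene MIR6516 overlaps the 3′ end of SCARNA16 (GRCh38.p14, chr17:77089417-77089497, plus strand). Of its 81 bases, 77 lie in SCARNA16, which is 187 bases long in RefSeq, and 4 run past its end. It is shown because it carries the box that names the class. Capitals mark ACA, which here stands 3 bases before the end of SCARNA16, the place that the box holds in H/ACA RNAs.
MIR6516 hairpin: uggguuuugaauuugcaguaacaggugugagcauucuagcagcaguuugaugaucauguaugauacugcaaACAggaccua
Both RefSeq mature microRNAs of this hairpin lie wholly inside SCARNA16, and their capitals mark the seed.
hsa-miR-6516-5p: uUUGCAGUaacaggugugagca
hsa-miR-6516-3p: aUCAUGUAugauacugcaaaca
SCARNA16 read 4.10 on replicate 1 and 3.92 on replicate 2.

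Since H/ACA RNAs of vertebrates are as a rule made from host introns, the starts of genes that contain these RNAs are shown as well (RefSeq, GRCh38.p14). Each line runs from 15 bases before the start to 15 bases from it, and capitals mark a C at the first transcribed base with the unbroken run of C or T that follows, where that run counts at least 5 bases. Such a start resembles the 5′ terminal oligopyrimidine tract, which ties translation of ribosomal protein mRNAs to growth signals. The first 5 lines are ribosomal protein hosts and the last 3 are the hosts of the SNORA RNAs with the highest signals.
RPL27A, host of SNORA3A and SNORA3B, chr11:8682777-8682806, plus strand: ttggcgaaggccttcCTTTTTCgtctgggc
RPS12, host of SNORA33, chr6:132814554-132814583, plus strand: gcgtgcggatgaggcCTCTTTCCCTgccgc
RPLP2, host of SNORA52, chr11:809952-809981, plus strand: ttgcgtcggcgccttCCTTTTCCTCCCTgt
RPSA, host of SNORA6 and SNORA62, chr3:39406705-39406734, plus strand: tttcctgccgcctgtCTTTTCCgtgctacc
RPL39, host of SNORA69, chrX:119791616-119791645, minus strand: ttcttccgccagcttCCCTCCTCTTCCTTT
TBRG4, host of SNORA5A, SNORA5B and SNORA5C, chr7:45111683-45111712, minus strand: cgcgccgcgcacctcatggttccggggaca
KHDC4, host of SNORA80E and SCARNA4, chr1:155934399-155934428, minus strand: gtgacgagaggtggtagtcggatagttggc
SNHG17, host of SNORA71A and SNORA71C, chr20:38435314-38435343, minus strand: ttgtcgtgtggcctcagtccttcgccgtcc

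Background was set by 360 olfactory receptor genes, and an RNA passed where it lay beyond their 95th percentile on both arrays (2.98 on replicate 1 and 2.88 on replicate 2). A stricter second threshold came from 116 keratin-associated protein, bitter taste receptor and beta-defensin genes (5.40 and 5.22). Of the 77 RNAs, 37 (48.1%) were above the olfactory threshold on both arrays, against 55.8% of all named genes. A further 7 passed on 1 array only and 33 on neither. The second threshold was passed by 4 RNAs (5.19%), against 17.1% of all named genes. The share above the olfactory threshold was thus near that of genes at large, and the share above the second was lower, with no test made of either difference. The median signal of the 77 was 3.03, with quartiles at 2.15 and 4.21, and that of all named genes was 3.33. The signal of a probe set depends on its probes, so a value stands against the thresholds and the other array, and the order of 2 RNAs is not an order of abundance. The arrays do not tell a processed RNA from unspliced host transcripts, and in a bulk extract fewer cells with an RNA and less of it per cell cannot be told apart.

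**Figure D1:**
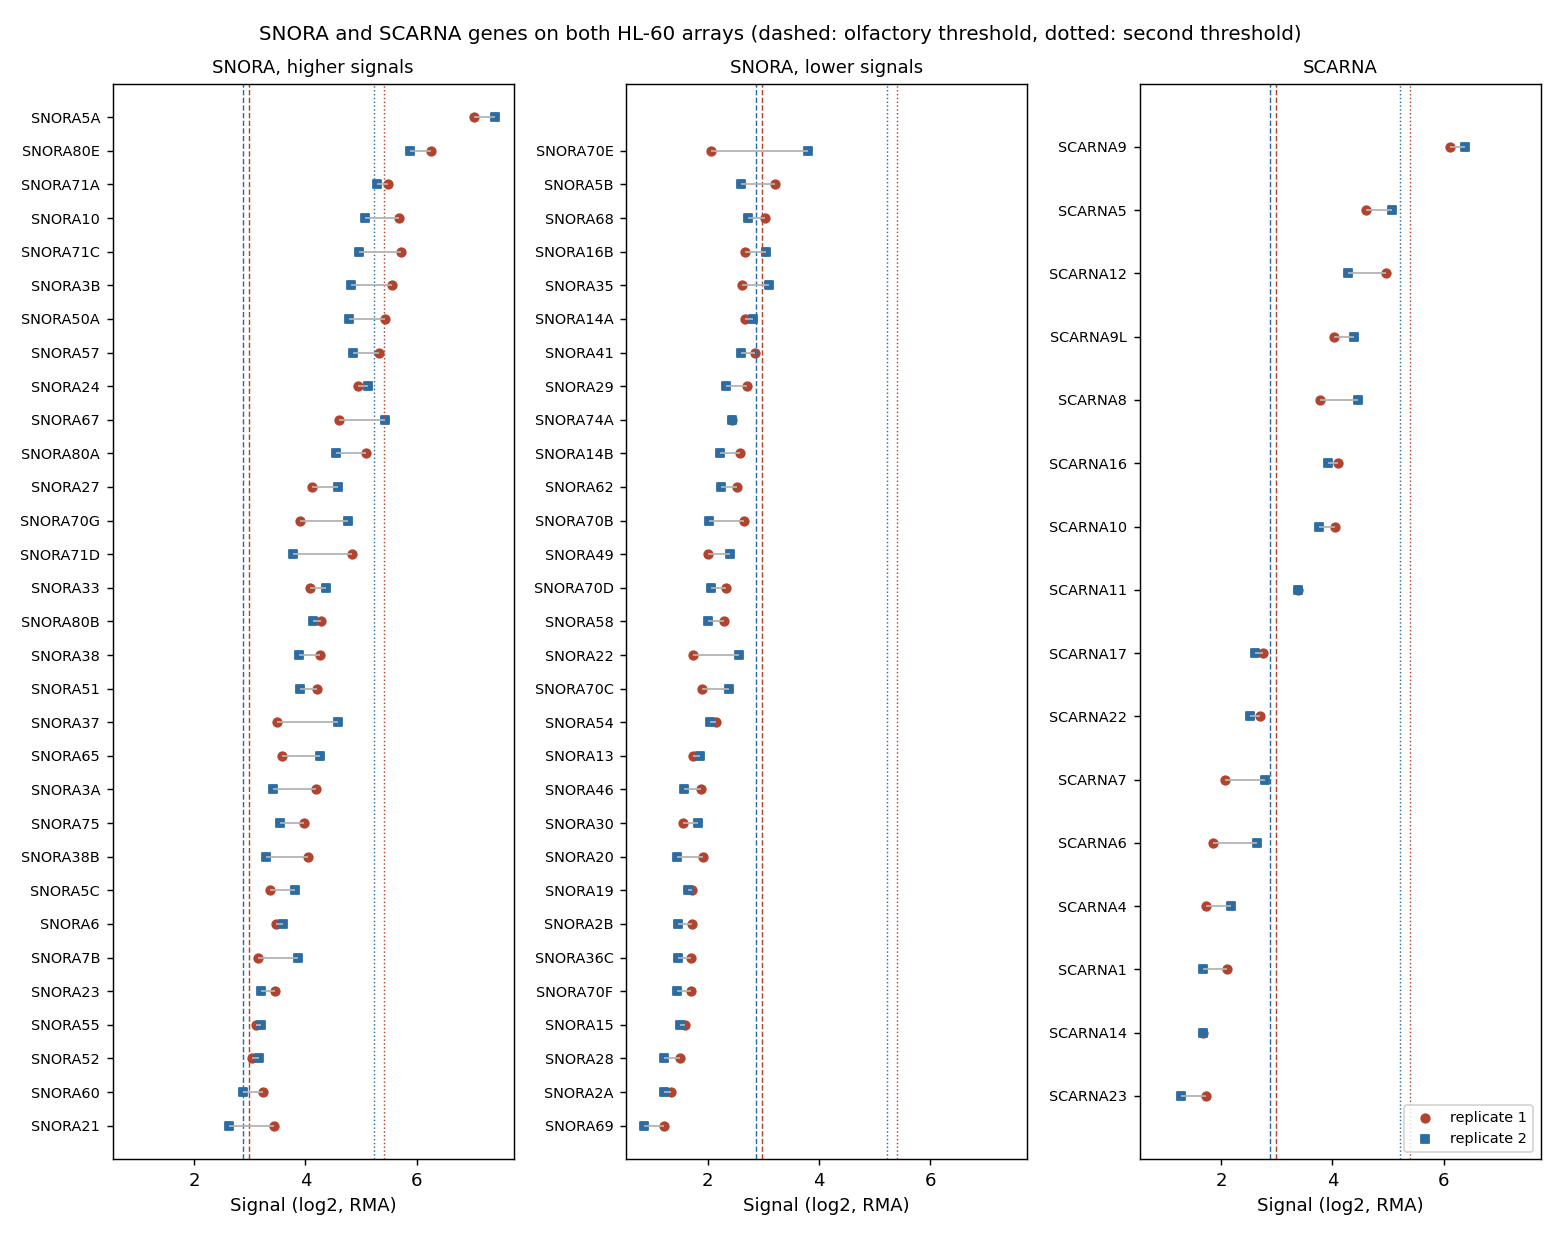
Log2 RMA signal (x axis) of the 61 SNORA and 16 SCARNA genes (rows, by falling mean) on replicate 1 (circles) and replicate 2 (squares), with a grey line joining the arrays and vertical lines for the thresholds of each array. SNORA5A, SNORA80E, SNORA71A and SCARNA9 lie beyond the second threshold on both arrays, and 33 RNAs lie below the olfactory threshold on both.

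Box C/D RNAs of the nucleolus (SNORD), which guide ribose methylation, are the most similar set on the array. Of the 115 SNORD genes, 40 (34.8%) were above the olfactory threshold on both arrays, and their median was 2.33. SNORA and SCARNA RNAs thus passed the olfactory threshold in a larger share of cases, whereas the second threshold was passed by 10 SNORD genes (8.70%) and by 4 of the 77. The highest SNORD gene read 10.04 on average, and the highest SNORA gene 7.22. No test was made of these differences, since genes are not replicates. Of 14 other short noncoding RNAs with a probe set of their own, 7 passed, and RMRP and RPPH1, the RNA parts of the enzymes RNase MRP and RNase P, passed the second threshold at 7.05 ± 0.13 and 6.68 ± 0.61. TERC, the telomerase RNA, ends in an H/ACA domain and binds the same core proteins. It read 3.66 on both arrays, between the thresholds.

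**Figure D2:**
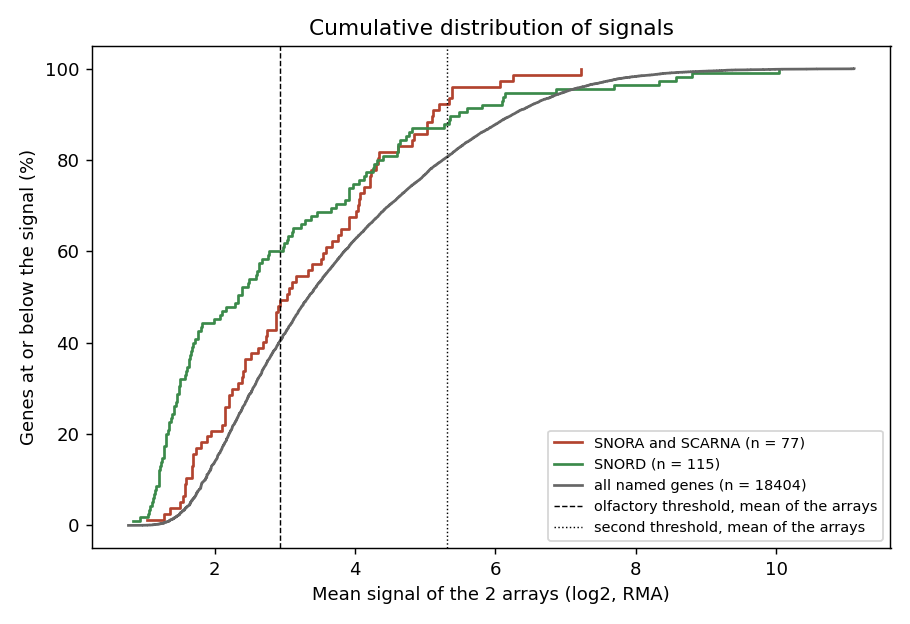
Cumulative share of genes (y axis, %) at or below a mean log2 RMA signal (x axis) for the 77 SNORA and SCARNA genes, the 115 SNORD genes and all 18404 named genes, with both thresholds averaged over the arrays. The SNORA and SCARNA curve (median 3.03) runs between that of SNORD (median 2.33) and that of all named genes (median 3.33) at lower signals and crosses the SNORD curve between the thresholds.

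Among the nucleolar guides, 29 of 61 SNORA genes (47.5%) passed the olfactory threshold on both arrays. SNORA5A read 7.03 on replicate 1 and 7.42 on replicate 2 and had the highest signal of the 77. SNORA80E read 6.26 and 5.88, and SNORA71A 5.48 and 5.29. These 3 were the SNORA genes above the second threshold on both arrays. SNORA10, in the ribosomal protein gene RPS2, read 5.68 and 5.08, and SNORA71C read 5.72 and 4.96. SNORA3B read 5.56 and 4.82, and SNORA50A 5.44 and 4.78. Each of these 4 was above the second threshold on replicate 1 and below it on replicate 2. SNORA57 read 5.32 and 4.86, and SNORA24, a guide for the small-subunit rRNA in the noncoding gene SNHG8, read 4.94 and 5.12. SNORA67, within EIF4A1, which encodes an RNA helicase of translation initiation, and the readthrough gene SENP3-EIF4A1, differed in the other direction, at 4.60 and 5.43, and passed the second threshold on replicate 2 only.

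The lowest SNORA signals were far under the olfactory threshold on both arrays. SNORA69, in the ribosomal protein gene RPL39, read 1.21 on replicate 1 and 0.86 on replicate 2. SNORA2A, in KANSL2, a gene of a histone acetyltransferase complex, read 1.34 and 1.21. SNORA28, in the translation initiation factor gene EIF5, read 1.50 and 1.22. Next came SNORA15 (1.54 ± 0.06) and SNORA70F (1.58 ± 0.17). SNORA15 has 2 probe sets, and neither passed: one read 2.52 and 2.54 and the other 0.66 and 0.46.

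Of the 16 Cajal body RNAs, 8 passed the olfactory threshold on both arrays and 8 on neither, so none changed sides between the arrays. Of all named genes 55.8% passed on both arrays, and 1399 of 18404 passed on 1 array only. With 16 RNAs the lack of such a change is no result about Cajal body RNAs. By box class, 3 of 8 box H/ACA, 3 of 4 mixed and 1 of 3 box C/D RNAs passed, together with SCARNA9L. These counts are too small for a result about box classes. Among the box C/D RNAs, SCARNA9, which guides methylation of U2 snRNA, was the highest and the only SCARNA above the second threshold (6.12 on replicate 1 and 6.38 on replicate 2). SCARNA7, a methylation guide for U1, read 2.07 and 2.79, and SCARNA17, which guides methylation of U4 and U12, read 2.76 and 2.61. Both lay below the olfactory threshold.

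Of the 4 mixed RNAs 3 passed, too few to set apart from the 55.8% of all named genes. SCARNA5 read 4.61 on replicate 1 and 5.07 on replicate 2, and SCARNA12 read 4.96 and 4.27. SCARNA10, which guides both kinds of modification on U5 snRNA, read 4.05 and 3.77. The fourth, SCARNA6, did not pass on either array (1.86 and 2.64). Of the box H/ACA RNAs, SCARNA8, a pseudouridylation guide for U2, read 3.78 and 4.46, and SCARNA16 passed as given above. SCARNA11 passed at 3.38 on both arrays. The other 5 were below the olfactory threshold on both arrays: SCARNA22 averaged 2.61 ± 0.12, SCARNA4 1.95 ± 0.32, SCARNA1 1.89 ± 0.30, SCARNA14 1.68 and SCARNA23 1.50 ± 0.32. SCARNA22 lies in NSD2, the histone methyltransferase gene activated by t(4;14) in multiple myeloma, and SCARNA1 and SCARNA4 are pseudouridylation guides for U2. Guides for the same snRNA, U2, stood on both sides of the threshold. Since 55.8% of all named genes passed and the U2 guides are few, this is no result about them.

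SCARNA9 and its relative SCARNA9L have 2 probe sets each, and these did not move together. For SCARNA9, one probe set read 6.58 on replicate 1 and 7.56 on replicate 2, and the other 5.66 and 5.20. For SCARNA9L, one read 5.15 and 6.34, and the other 2.91 and 2.44, below the olfactory threshold. In both genes the brighter probe set was higher on replicate 2 and the dimmer one lower, so the gene means hide opposite differences. The genes are related in sequence and probes may match both, so their signals are uncertain. The mean of SCARNA9L (4.21 ± 0.26) passed the olfactory threshold while 1 of its probe sets did not. SCARNA17 also has 2 probe sets, at 3.03 and 2.74 and at 2.48 on both arrays, and neither passed on both.

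Lettered copies share a number because they resemble each other, and probes of one may match another. Among 9 numbers with more than 1 measured copy, holding 25 genes, all copies passed for 5, none for 2 and some for 2. Of the 25 genes 15 passed the olfactory threshold, against 48.1% of all 77 RNAs and 55.8% of all named genes. With so few genes these counts are no result about copies. The 3 copies of SNORA71 passed, and so did the 3 of SNORA80, whose hosts differ: SNORA80E lies in KHDC4, SNORA80A (5.08 on replicate 1 and 4.54 on replicate 2) in the ribosome biogenesis gene URB1, and SNORA80B (4.28 and 4.13) in ODC1, which encodes the first enzyme of polyamine synthesis. Both copies of SNORA3 and of SNORA38 passed, and neither copy of SNORA2 or SNORA14 did. SNORA70 has the most copies, each in a different gene, and 1 of 6 passed on both arrays, SNORA70G in the small GTPase gene RAP1B (3.91 and 4.76). SNORA70E, in RAB30, crossed the olfactory threshold between the arrays (2.06 and 3.80). The copies SNORA70B (2.34 ± 0.44), SNORA70D (2.20 ± 0.20), SNORA70C (2.14 ± 0.34) and SNORA70F were below it on both.

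All 77 RNAs lay within the span of at least 1 other RefSeq gene. For 66 exactly 1 gene contained the RNA and is taken as its host, and for 11 several did. The gene table used here has no strand column, so hosts were assigned on either strand. Of the 66, 60 lay in a protein-coding gene, 5 in a noncoding SNHG gene and 1 in a transcribed pseudogene. The 66 RNAs had 56 hosts, and 46 of these had a probe set of their own, of which 41 passed the olfactory threshold and 28 the second. Hosts thus passed in a larger share of cases (41 of 46) than the RNAs (37 of 77). In percent, 89.1% of hosts lay above the lower threshold and 60.9% above the stricter one. Over all named genes these shares were 55.8% and 17.1%. No test was made of these differences.

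The 55 pairs of an RNA and a measured host showed how often the 2 calls went together. Both passed in 26 pairs, the host alone in 24, neither in 5 and the RNA alone in 0. Where the host passed, 52.0% of the RNAs did, close to the share over all 77. In the 5 pairs whose host did not pass on both arrays the RNAs were SNORA70C, SNORA70E, SNORA70F, SNORA35 (in the serotonin receptor gene HTR2C) and SNORA14A, named after their values were seen.

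**Figure D3:**
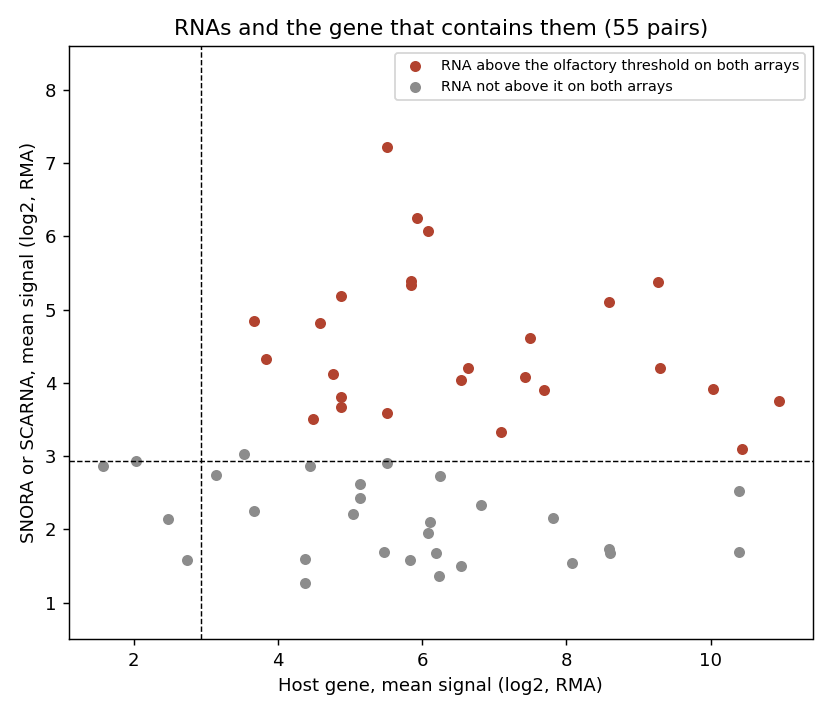
Mean log2 RMA signal of each RNA (y axis) against that of the gene that contains it (x axis) for 55 pairs, coloured by whether the RNA passed the olfactory threshold on both arrays, with dashed lines at the threshold averaged over the arrays. Coloured points number 26, and no coloured point lies left of the vertical line; signals of different probe sets are set against the thresholds, not against each other.

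Of 9 hosts with more than 1 RNA, 5 held both passing and non-passing RNAs, 2 only passing and 2 only non-passing ones. Since 48.1% of all 77 RNAs passed, mixed hosts are no result about RNAs that share a host. Apart from TBRG4, which holds 3 RNAs, the hosts and RNAs of this paragraph and the next were picked to show these counts after their values were seen. TBRG4, a gene of mitochondrial RNA regulation (5.44 on replicate 1 and 5.57 on replicate 2), holds the highest RNA, SNORA5A, together with SNORA5C (3.36 and 3.81) and SNORA5B (3.20 and 2.60), which passed on replicate 1 only. KHDC4 (6.15 and 6.03) holds SNORA80E and also SCARNA4 (1.73 and 2.17). CNOT1 holds SNORA50A, above the olfactory threshold on both arrays, and SNORA46 (1.89 and 1.58), below it on both. The autophagy gene ATG16L1 (3.50 and 3.85) holds SCARNA5, which passed, and SCARNA6, which did not. RPSA, which encodes a small-subunit ribosomal protein, holds SNORA6 (3.47 and 3.60), which passed, and SNORA62 (2.54 and 2.24), which did not.

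Other hosts kept their RNAs together. RPL27A holds SNORA3B and SNORA3A (4.19 and 3.41), and SNHG17 holds SNORA71A and SNORA71C. In both hosts all RNAs passed. The chaperonin gene TCP1 passed the second threshold on both arrays (10.51 and 10.28), and its RNAs SNORA29 (2.71 and 2.33) and SNORA20 (1.92 and 1.45) did not pass the olfactory one. KANSL2 (4.60 and 4.15) holds SNORA2A and SNORA2B (1.72 and 1.46), neither of which passed.

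**Figure D4:**
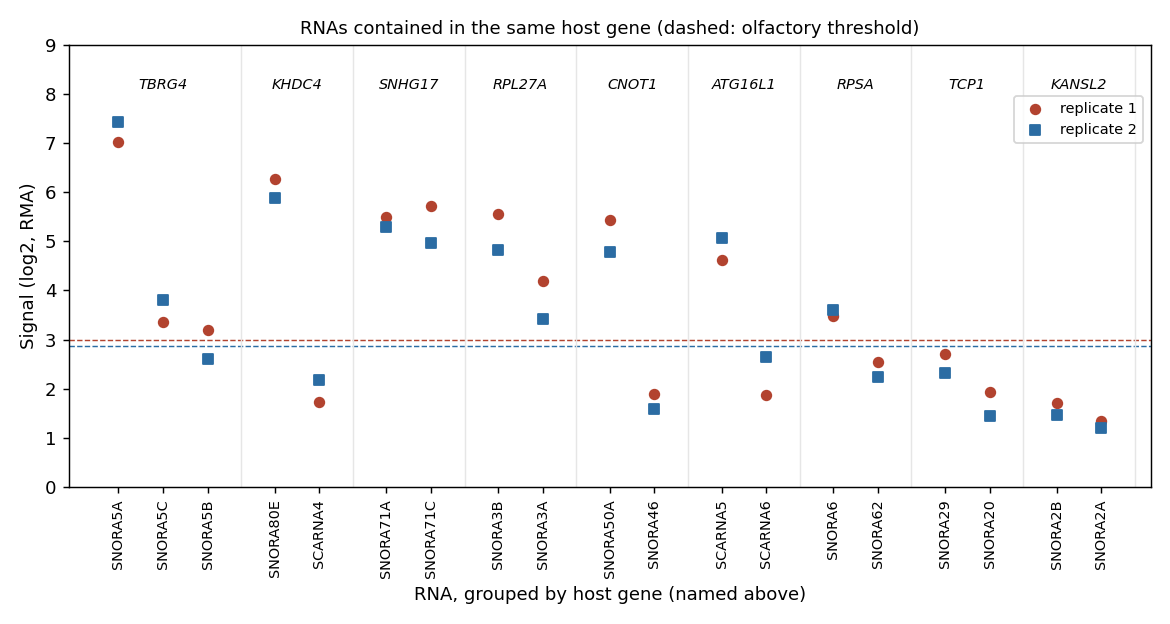
Log2 RMA signal (y axis) on replicate 1 (circles) and replicate 2 (squares) of the 19 RNAs that lie in 9 hosts with more than 1 RNA, grouped by host, with the olfactory threshold of each array dashed. In TBRG4, KHDC4, CNOT1, ATG16L1 and RPSA at least 1 RNA passed on both arrays and another did not.

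Hosts were also grouped by kind. Of 12 RNAs in ribosomal protein genes 8 passed the olfactory threshold, and of 4 in genes of translation factors 1. Of 5 in SNHG genes 3 passed, and of 45 in other single hosts 19. Over all 77 RNAs the share was 48.1%, and over all named genes 55.8%. Among the 12 none passed the second threshold on both arrays, against 5.19% of all 77 RNAs and 17.1% of all named genes. With 12 RNAs this is no result about RNAs in ribosomal protein genes. SNORA27 in RPL21 (4.11 on replicate 1 and 4.58 on replicate 2), SNORA33 in RPS12 (4.08 and 4.36), SNORA65 in RPL12 (3.58 and 4.25) and SNORA52 in RPLP2 (3.04 and 3.16) were among those that passed. SNORA21 in RPL23 (3.44 and 2.63) passed on replicate 1 but not on replicate 2. These counts are small, and the kinds, and the RNAs named here, were chosen with the values known.

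The pyrimidine start shown above was found in all 7 ribosomal protein hosts that have a start window in RefSeq, and in 7 of 40 other hosts (17.5%). Over all 27305 genes with such a window, 1404 (5.14%) have it. Only the strand of the gene was searched, and a gene counts where any of its windows holds it. Of 16 RNAs in hosts with such a start 10 passed the olfactory threshold (62.5%), and of 40 RNAs in hosts with a window but no such start 18 did (45.0%). Over all 77 RNAs the share was 48.1% and over all named genes 55.8%, and 9 of the 16 lie in ribosomal protein genes. No test was made of the difference. The hosts of the SNORA RNAs with the highest signals, TBRG4, KHDC4 and SNHG17, are among those without it, and RPL39, the host of the lowest, has it.

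Transcripts of genes for the proteins that bind H/ACA RNAs were examined next. Of the 6 genes listed for the H/ACA particle, 6 passed the olfactory threshold and 4 the second, against 55.8% and 17.1% of all named genes. DKC1, which encodes the pseudouridine synthase dyskerin, read 7.26 on replicate 1 and 7.28 on replicate 2. NOP10 read 8.54 and 8.02 and GAR1 7.51 and 7.68, and both encode core proteins of the mature particle. NHP2, the fourth core protein gene, read 5.99 and 5.00, with the lower array below the second threshold. The assembly factor genes SHQ1 (6.06 and 5.85) and NAF1 (3.05 and 3.11) differed in their calls, since NAF1 passed the olfactory threshold only. NAF1 is replaced by GAR1 as the particle matures.

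Of 18 measured genes of Cajal bodies and of small nucleolar particle assembly, 17 passed the olfactory threshold and 9 the second. Of all named genes 55.8% and 17.1% did. On replicate 2, 14 of the 18 read lower than on replicate 1, against 52.6% of all named genes. Their median difference was -0.21. COIL, which encodes the Cajal body scaffold coilin, read 6.07 on replicate 1 and 5.53 on replicate 2. WRAP53, whose protein brings scaRNAs and telomerase RNA to Cajal bodies, read 3.55 and 3.62, above the olfactory threshold only. NOLC1, a chaperone of small nucleolar particles, read 7.40 and 6.85. The RUVBL2 ATPase gene of the assembly complex read 7.39 and 6.60. GEMIN2, of the SMN complex, was the single gene of the list below the olfactory threshold on both arrays (2.56 and 2.42). Of the box C/D core genes, FBL (9.19 and 8.88) and NOP58 (7.96 and 8.01) passed the second threshold, and NOP56 and SNU13 were not analysed here for want of a probe set of their own.

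The 2 arrays ranked the 77 RNAs alike (Pearson's r 0.930, Spearman's rho 0.928 across them), a description over genes that share both arrays. Pearson's r was 0.957 over SNORD genes, 0.974 over all named genes and 0.768 over the 360 olfactory receptor genes. The SD of the array differences was 0.52 for the RNAs, 0.58 for SNORD genes and 0.39 for all named genes. On replicate 2, 45 of the 77 RNAs read lower than on replicate 1, 29 read higher and 3 read the same, and 52.6% of all named genes read lower. Of the 115 SNORD genes, 74 (64.3%) read lower. The median difference, replicate 2 minus replicate 1, was -0.17 over the RNAs, -0.17 over SNORD genes and -0.04 over all named genes. It was -0.25 over SNORA and 0.00 over SCARNA. Among the 44 RNAs that passed on 1 or both arrays, 23 were lower on replicate 2 (52.3%) and 20 higher, with a median difference of -0.16. Among the 11665 named genes that passed so, 47.9% were lower, with a median of 0.00. With 1 array on each side these differences have no replicate check. Of the 8 promyelocyte markers 5 read lower and 3 higher on replicate 2, with a median difference of -0.25 and a range from -1.75 for the granule protease gene CTSG to 0.24 for MYB, and their part in the differences was not tested.

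A difference of more than 1 on the log2 scale was seen for 3 RNAs, or 3.90%, against 1.96% of all named genes. Among the 115 SNORD genes it was seen for 12 (10.4%). With the brightest probe set of each gene in place of the mean the count was 4, since the brighter probe set of SCARNA9L differed by 1.19. SNORA70E differed most (2.06 on replicate 1 and 3.80 on replicate 2), while its host RAB30 read 2.19 and 1.89. SNORA37 read 3.49 and 4.58, and its host MBD2, which encodes a methyl-CpG binding protein, was also higher on replicate 2 (6.18 and 6.89). SNORA71D read 4.83 and 3.77, and SNHG17 (5.65 and 6.03), 1 of the genes that contain it, differed in the other direction. Among RNAs that passed on 1 or both arrays, SNORA70G, SNORA67 and SNORA21 came next, with differences of 0.85, 0.83 and -0.81. Over the 55 pairs of RNA and host the differences between arrays had the same sign in 32, with Pearson's r = 0.14 and a Spearman's rho of 0.08. SNORA74A, SCARNA11 and SCARNA14 had exactly equal values on both arrays, as did 5.23% of all named genes, so their SD of 0.00 does not show a smaller error.

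**Figure D5:**
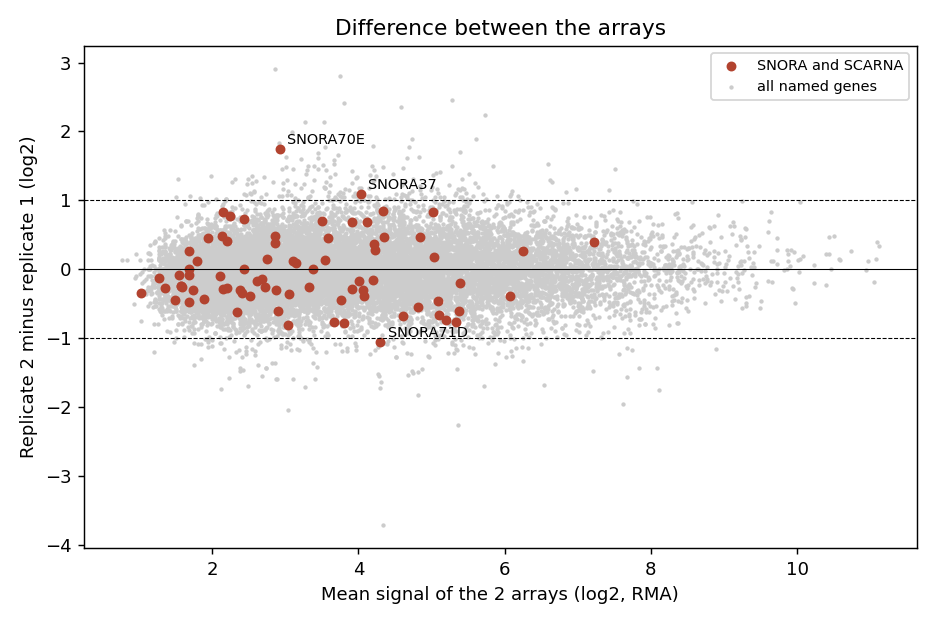
Difference between the arrays (y axis, replicate 2 minus replicate 1, log2) against the mean log2 RMA signal (x axis) for the 77 SNORA and SCARNA genes over all named genes, with dashed lines at 1 and -1. SNORA70E, SNORA37 and SNORA71D lie outside the dashed lines.

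The labelled cell type was checked against its markers. All 8 promyelocyte markers, among them MPO and MYB, passed the olfactory threshold, against 55.8% of all named genes. The second threshold was passed by 5 of the 8, against 17.1% of all named genes. ELANE (4.59 ± 0.17), AZU1 (3.10 ± 0.13) and CEBPE (4.62 ± 0.18) did not pass it. Of the markers of other cells, 1 of 5 for T and NK cells and 2 of 3 for B cells passed the olfactory threshold on both arrays. So did 1 of 4 for monocytes, 1 of 3 for erythroid and 0 of 4 for epithelial cells. None of the markers of other cells passed the second threshold.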

How the data were processed

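The values are log2 RMA signals per probe set, deposited by the authors, per the submitters' processing notes (RMA). From each sample 200 ng of total RNA was amplified and labelled with NuGEN kits, per the labels' protocols. The base of the logarithm was taken as 2. For software versions, or which arrays were normalized jointly, the sources used here give nothing. RMA equalizes array distributions before it summarises probes, so a global change cannot be seen. The probe set values were not fully equal, with medians of 3.02 on replicate 1 and 3.00 on replicate 2.

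Of 32321 probe sets, 19158 carried 1 symbol, and symbols were updated through Entrez IDs (RefSeq, GRCh38.p14, used for names and containment only). Probe sets of 1 gene were averaged. The RNAs and gene lists were chosen with earlier results of these data known. Genes named were all SCARNA, the 10 highest and 5 lowest SNORA, the 6 largest differences, genes with over 1 probe set, lettered copies, hosts of 3 or more RNAs, listed H/ACA protein genes, TERC and their hosts, the differences being ranked among RNAs above background on at least 1 array. Others were chosen after their values were seen. With 1 group no test was possible. The host plan asked for the same strand, which the gene table lacks. Alternatives were quantile normalization, loess, other thresholds, the highest probe set and each array alone. Calls were tested on simulated data in which signals were planted far from the threshold. That test does not show how reliable calls near the threshold are. Python 3.11.15, numpy 2.4.6, pandas 2.3.3, statsmodels 0.14.6 and matplotlib 3.10.9 were used.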

Additional observations from a re-analysis of the deposited data

Results flagged for a closer look

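A further 27 probe sets carry a SNORA or SCARNA symbol together with another gene's, and were left out of the counts above. On both arrays 17 of them (63.0%) lay above the olfactory threshold, and 5 of 27 lay above the stricter one. These shares are near those of all named genes, 55.8% and 17.1%. They were picked out because signal appeared in data outside the main measurement. They hold 20 symbols that no probe set carries alone, among them SNORA73A, an RNA of pre-rRNA cleavage, whose probe set with SNHG3 read 5.66 on replicate 1 and 3.81 on replicate 2. The part of the host transcript in these signals was not tested.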

How the results depend on the processing

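No paired analysis was possible because both arrays belong to 1 group. Of 72 recomputed values for 12 results, 61 stayed within 1.5 times the count or within the spread between replicates. Some of these had little room to move. Loess shifts the 2 arrays by opposite amounts, which leaves their mean as it was. Only 4 of the 77 RNAs have more than 1 probe set. For the median difference the limit was 0.28, which is larger than the difference itself. With the second background set as threshold, which lies higher, RNAs above background numbered 4 in place of 37, SNORD genes 10 in place of 40, and Cajal body and assembly genes 9 in place of 17. With the olfactory threshold at the 99th percentile 25 RNAs passed, 18 of them SNORA, and 5 of the 6 H/ACA protein genes. On each array alone 40 to 41 RNAs passed, and the median signal was 3.11 on both, against 3.03 for the mean of the arrays and 3.05 after quantile normalization. The SNORD median ran from 2.14 to 2.39. With RNAs above background on at least 1 array, 23 in place of 45 were lower on replicate 2, because fewer were compared. The median difference of the RNAs was -0.10 with quantile normalization and -0.09 with loess, against -0.17 as deposited, and that of all named genes 0.00 and 0.01; the cause was not tested. Taking every containing gene as a host, chosen after seeing the data, gave 47 of 55 hosts above background in place of 41 of 46. Assignment by strand and the median of RNA minus host were not run, the first for lack of strand and the second because levels of different probe sets are not comparable.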
